A study of Mus musculus with 9 samples.

Results

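ZEB1 signal was measured at 1286 peaks that lie where at least 2 protein-coding genes meet. They were chosen by position alone, as every consensus peak whose centre lies within 1 kb of a start or end of 2 or more different protein-coding genes, and they make up 5.44% of 23623 peaks. Of these peaks, 1260 had 2 such genes and 26 had 3, and together they touched 2354 genes. The remaining peaks were 5406 with a boundary of 1 gene within the same distance and 16931 with none.

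The assay was CUT&RUN, in which an antibody tethers a nuclease to chromatin and the released DNA is sequenced. All libraries came from PB3, a mouse breast cancer line whose labels give it as negative for the oestrogen, progesterone and HER2 receptors. Eribulin, a drug that blocks microtubule growth, was given at 300 nM for 24, 48 or 72 h (2 libraries each, labelled PB3_ERI and spelled Erubilin in the labels), and 2 libraries came from untreated cells (labelled PB3-Parental). A further library with IgG in place of the ZEB1 antibody entered the peak calling of the authors and no test here. No RNA was measured, so the receptor status could not be checked, and a change at a peak says nothing of the expression of the genes beside it. Nothing in the labels says that replicates were separate cultures, so a p-value here covers no more than the spread of the sequenced libraries, which may be technical.

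The zinc-finger protein ZEB1 binds E-box sequences and is best known for repressing epithelial genes, with the CtBP proteins among its corepressors. Genes arranged head to head on opposite strands often share a short promoter rich in CG dinucleotides, and many of them serve functions needed in every cell, such as respiration, DNA repair and protein folding. The replication-dependent histone genes are an example in which such pairs are switched on together as DNA is copied.

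Counts in consensus peaks summed to between 326944 and 765015 in the 6 eribulin libraries and to 372896 and 672582 in the 2 control libraries. The 2 libraries of each group differed by about as much as counting error, with a chi-square per degree of freedom of 0.953 at 24 h, 1.06 at 48 h, 0.965 at 72 h and 0.931 in controls. Every value below is relative to the other peaks of its library, so a shift shared by all peaks cannot be seen. Averaged over the 3 eribulin times, the median fitted log2 fold change against control of all 21192 tested peaks was -0.01. CPM is a peak's count scaled to the TMM-adjusted total of the library in tested peaks, per 1000000 counts.

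Strand was known for 978 of the shared-boundary peaks. Of all 1286, 728 lay at genes that start back to back on opposite strands. Another 193 lay between the end of a gene and the start of the next on the same strand. A further 19 were at starts on the same strand, 12 between ends and 8 at a start and an end on opposite strands. Peaks with 3 genes and every strand known numbered 18. The other 308 lacked a strand for a gene, and they hold the rest of the peaks with 3 genes. In the 728 head-to-head cases the starts were a median of 46.5 bp apart (counted as negative where the genes overlapped), and 244 overlapped. In the 484 without overlap, the peak centre fell between the starts in 167 cases (34.5%). In the other cases it lay to a side of both starts.

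Promoter windows of 7 genes are shown because the largest changes or the best-known pairs lie there. Each runs from 250 bases before to 50 after a RefSeq transcript start (GRCm38.p6), 5′ to 3′ on the strand of the named gene. Capitals mark every match, on either strand, to a set of motifs searched by their letters. The E-box that ZEB1 is known to bind was searched as CACCTG. A variant of that E-box was searched as CACCTA. The letters for ETS factors were CCGGAAG and those for the factor NF-Y, a regulator of cell cycle promoters, were CCAAT. For SP factors the letters were GGGCGG. The TATA box was searched as TATAAA. The CRE motif TGACGTCA and the longer motifs of NRF1 and BANP were searched too and had no match in the windows shown. Neighbouring matches can overlap and then run together in capitals. The first 3 windows come from histone gene pairs where ZEB1 signal fell, the next 3 from pairs where it rose, and the last from a pair with no call.
H2ac24 (partner H4bc24, chr13:21833426-21833725, minus strand): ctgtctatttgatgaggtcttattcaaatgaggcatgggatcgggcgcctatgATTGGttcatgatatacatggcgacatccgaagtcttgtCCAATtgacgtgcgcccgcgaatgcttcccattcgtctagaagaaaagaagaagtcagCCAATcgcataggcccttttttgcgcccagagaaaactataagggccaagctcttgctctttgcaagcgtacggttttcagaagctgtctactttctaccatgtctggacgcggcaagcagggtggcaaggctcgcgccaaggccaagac
H2ac15 (partner H2bc15, chr13:21753863-21754162, minus strand): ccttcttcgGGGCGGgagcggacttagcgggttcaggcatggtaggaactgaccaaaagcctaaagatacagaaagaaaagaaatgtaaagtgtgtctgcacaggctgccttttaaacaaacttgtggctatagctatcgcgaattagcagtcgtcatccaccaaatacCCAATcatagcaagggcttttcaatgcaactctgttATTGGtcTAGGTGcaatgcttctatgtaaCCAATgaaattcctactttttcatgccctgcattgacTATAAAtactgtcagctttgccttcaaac
H2bc23 (partner H2ac23, chr13:21810150-21810449, minus strand): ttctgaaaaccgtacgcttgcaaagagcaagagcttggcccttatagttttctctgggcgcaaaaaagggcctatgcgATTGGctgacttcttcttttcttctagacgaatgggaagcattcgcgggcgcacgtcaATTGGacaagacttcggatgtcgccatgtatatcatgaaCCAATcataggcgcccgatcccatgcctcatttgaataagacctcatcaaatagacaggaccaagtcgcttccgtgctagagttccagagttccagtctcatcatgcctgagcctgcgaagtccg
Arvcf (partner Tango2, chr16:18347932-18348231, plus strand): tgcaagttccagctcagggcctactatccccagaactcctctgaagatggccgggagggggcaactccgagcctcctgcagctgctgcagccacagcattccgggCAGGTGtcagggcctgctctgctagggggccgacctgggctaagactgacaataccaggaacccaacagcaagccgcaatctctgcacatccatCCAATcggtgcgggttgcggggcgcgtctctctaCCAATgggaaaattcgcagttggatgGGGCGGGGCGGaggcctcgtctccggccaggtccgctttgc
Ro60 (partner Uchl5, chr1:143777002-143777301, minus strand): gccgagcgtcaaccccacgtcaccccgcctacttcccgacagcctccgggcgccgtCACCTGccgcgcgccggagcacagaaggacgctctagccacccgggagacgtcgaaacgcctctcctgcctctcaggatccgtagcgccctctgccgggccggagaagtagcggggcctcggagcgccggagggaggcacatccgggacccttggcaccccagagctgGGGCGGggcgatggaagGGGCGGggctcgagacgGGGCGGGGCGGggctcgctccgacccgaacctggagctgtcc
Tap1 (partner Psmb9, chr17:34187306-34187605, plus strand): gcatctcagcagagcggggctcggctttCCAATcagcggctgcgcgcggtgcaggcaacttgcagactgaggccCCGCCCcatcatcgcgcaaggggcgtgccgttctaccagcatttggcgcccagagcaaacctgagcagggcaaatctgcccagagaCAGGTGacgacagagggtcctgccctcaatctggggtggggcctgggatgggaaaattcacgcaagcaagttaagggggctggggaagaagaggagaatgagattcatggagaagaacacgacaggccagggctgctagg
Hspe1 (partner Hspd1, chr1:55087898-55088197, plus strand): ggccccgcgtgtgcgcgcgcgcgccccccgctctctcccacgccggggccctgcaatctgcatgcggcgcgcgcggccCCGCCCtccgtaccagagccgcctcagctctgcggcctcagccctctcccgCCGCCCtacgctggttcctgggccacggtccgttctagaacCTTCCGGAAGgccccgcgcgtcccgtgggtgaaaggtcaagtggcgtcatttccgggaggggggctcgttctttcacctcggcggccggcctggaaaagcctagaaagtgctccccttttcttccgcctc

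The 3 histone windows held no CACCTG, and each held 3 CCAAT matches. The Arvcf, Ro60 and Tap1 windows each held 1 CACCTG, and the Hspe1 window held none and 2 CCGGAAG matches that overlap. The partner gene starts inside 6 of these windows, at base 87 of the H2ac15 window, 83 of H2bc23, 167 of Arvcf, 24 of Ro60, 25 of Tap1 and 35 of Hspe1, so those windows cover both starts. All 300 bases lay in the peak except for Arvcf, where 253 did.

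RefSeq windows overlapping their peak were found for 1015 of the 1286 peaks, 1733 windows in all, some of which share bases. CCGGAAG was in 29.1% of them, against 19.7% of 3893 windows at single-boundary peaks and 8.86% of all 32851 windows. CACCTG was in 15.1%, against 15.9% at single-boundary peaks and 20.2% of all windows. GGGCGG was in 71.3% (76.8% at single-boundary peaks, 35.7% of all windows), CCAAT in 46% (46.1%, 37.4%) and TATAAA in 4.56% (5.83%, 13.6%). In the same order, the NRF1 motif was in 16.1% (13.2%, 4.6%) and TGACGTCA in 4.85% (3.39%, 1.79%). CACCTA was in 9.46% (8.17%, 10.1%) and the BANP motif in 1.96% (1.23%, 0.466%). The median GC content was 62.7%, against 63.3% at single-boundary peaks and 52.7% over all windows. Among windows at peaks that rose over the 3 times, 63 of 261 (24.1%) held CACCTG, against 183 of 1359 (13.5%) at tested peaks with no call. Among windows at peaks that fell, 2 of 51 (3.92%) held it. These shares are descriptions with no test, and a match is not a shown binding site.

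Shared-boundary peaks had a larger median width and level than other peaks, with no test made. Their median width was 440 bp, against 381 bp at single-boundary peaks and 331 bp away from boundaries. Their median level over the 8 libraries was 42.4 CPM, against 38.1 and 34.3 CPM. Of the 1286 peaks, 47.9% were in the authors' peak lists of all 4 groups, against 40.7% of single-boundary peaks and 31.8% of those away from boundaries. The lists are 1 per group, and the median fold over IgG of the shared-boundary peaks, as deposited by the authors, was 7.51 in the 24 h list, 9.92 in the 48 h list, 7.47 in the 72 h list and 7.14 in the control list. The share of shared-boundary peaks found in a list was 68.0% at 24 h, 70.7% at 48 h and 74.7% at 72 h, against 78.1% in control, for single-boundary peaks it was 61.9%, 65.1% and 67.7%, against 75.0%, and for peaks away from boundaries it was 62.9%, 57.8% and 44.7%, against 79.9%.

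In total 1190 shared-boundary peaks passed the filter on low counts, and 96 did not. Those 96 had a median width of 158 bp, and 91.7% of them were in the list of a single group. Their levels were too low to test, and the counts below leave them out.

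ZEB1 signal at shared boundaries was on balance higher in eribulin, and more of these peaks were called higher at later times. Their share of all counts in peaks was 6.0 and 6.22% after 24 h, 6.92 and 6.5% after 48 h, and 7.29 and 7.55% after 72 h, against 6.03 and 5.95% in controls. The 95% Wilson interval, which covers counting error only, was 7.46 to 7.65% in the higher 72 h library and 5.95 to 6.11% in the higher control library. The 24 h libraries lay close to the controls, and all 4 later libraries lay above them.

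After 24 h, 86 of 1190 tested peaks were higher than control and 48 were lower, 11.3% in all, where 11.0% of all tested peaks were called. After 48 h, 116 were higher and 23 lower, or 11.7% against a background of 11.5%. After 72 h, 198 were higher and 17 lower, or 18.1% against 12.6%. Calls are edgeR quasi-likelihood tests with a Benjamini-Hochberg adjusted p under 0.05 over all tested peaks. The median log2 fold change of the tested shared-boundary peaks was 0.09 at 24 h, 0.24 at 48 h and 0.40 at 72 h, and the 3 times share the same 2 control libraries.

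By direction, the share called higher was 7.23% at 24 h, 9.75% at 48 h and 16.6% at 72 h (6.44, 6.09 and 6.84% of all tested peaks), and the share called lower was 4.03, 1.93 and 1.43% (4.61, 5.41 and 5.74% of all tested peaks). Of single-boundary peaks, 6.01, 8.04 and 13.6% were higher and 3.14, 1.65 and 0.806% lower. Away from boundaries the shares called higher were 6.52, 5.18 and 3.91% and the shares called lower 5.12, 6.89 and 7.65%. The classes were not tested against each other.

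These counts depended on the control libraries and on the test. Without control replicate 2, the deeper of the controls, 31 peaks were called at 24 h, 24 at 48 h and 43 at 72 h, and without control replicate 1 the counts were 88, 81 and 142. DESeq2 called 5 peaks at 24 h (0.406% of all tested peaks), 5 at 48 h (0.359%) and 6 at 72 h (0.529%). At 48 h all 5 of its calls were lower, against 116 higher and 23 lower with edgeR. DESeq2 gave no adjusted p for 447 shared-boundary peaks at 24 h, 526 at 48 h and 475 at 72 h. Its unadjusted p was under 0.05 at 114, 108 and 199 of these peaks in the same order.

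**Figure D1:**
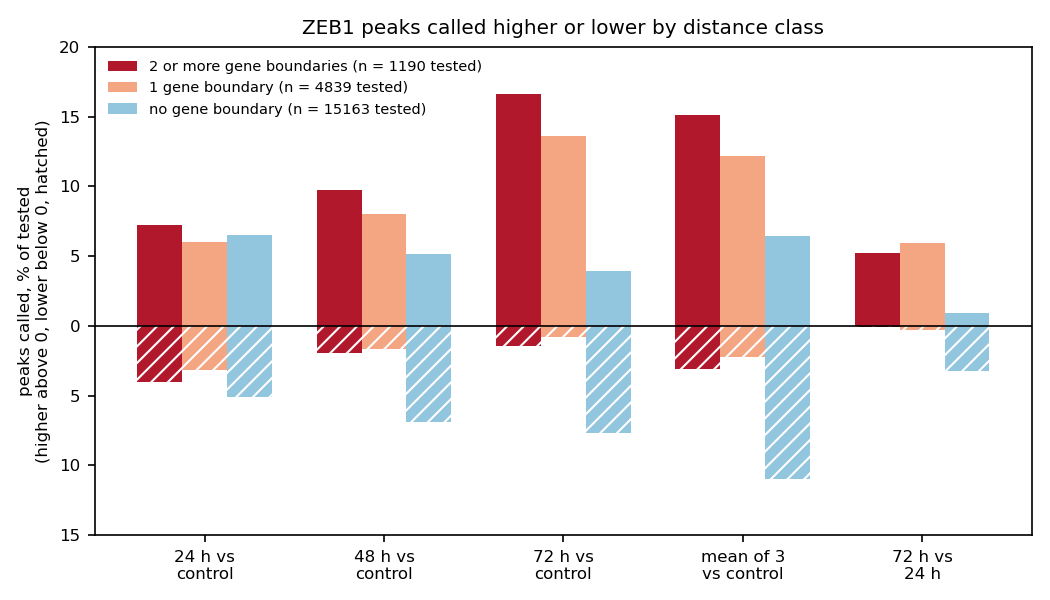
Bars give the percentage of tested peaks called higher (above 0) or lower (hatched, below 0) in each comparison, for peaks with 2 or more gene boundaries, 1 and none within 1 kb. At shared boundaries the share called higher was 7.23% at 24 h and 16.6% at 72 h, while away from boundaries it was 6.52 and 3.91%.

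Averaged over the 3 times, 180 shared-boundary peaks were higher than control and 37 lower, 18.2% in all, where 16.8% of all tested peaks were called (8.27% higher and 8.53% lower). Called rises had a median log2 fold change of 0.94 and a median level of 46.5 CPM, and called falls -0.71 and 122 CPM. Leaving out control replicate 2, this comparison had 25 rises and 10 falls, and DESeq2, which called 1.07% of all tested peaks, gave 10 and 7.

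Over the mean of the 3 times, 15.1% of tested shared-boundary peaks rose and 3.11% fell, where 8.27 and 8.53% of all tested peaks did. Peaks at head-to-head starts had 97 rises and 16 falls among 677 tested (14.3 and 2.36%), and a median log2 fold change of 0.22. Peaks between an end and a start on the same strand had 31 rises and 8 falls among 177, with a median of 0.32. Overlapping head-to-head pairs had 28 rises and 4 falls among 223 tested peaks, pairs up to 100 bp apart 33 and 2 among 221, and pairs further apart and up to 300 bp 26 and 8 among 162. At the edge of the rule, peaks whose second gene was over 900 and up to 1000 bp away had 11 rises and 6 falls among 62 tested, and 45 tested peaks just outside, up to 1100 bp away, had 8 and 2.

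The largest rises among the better-covered peaks, those at or above the median CPM whose 6 eribulin and 2 control libraries did not overlap, were at genes of varied roles. In all, 108 peaks (9.08%) met these limits as rises and 25 (2.1%) as falls, where 4.06 and 3.98% of all tested peaks did. The 10 largest rises had log2 fold changes from 1.19 to 1.44.

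The peak between Ndufaf7, which encodes an assembly factor of respiratory complex I, and Cebpz, which encodes a CCAAT-binding family protein (chr17:78936927-78937402), had 73.3 and 76.4 CPM at 24 h, 56.9 and 70.1 CPM at 48 h, and 60.1 and 78.4 CPM at 72 h, against 24.8 and 26.0 CPM in controls. All 6 eribulin libraries were more than double either control in level. Both 24 h libraries were above both 48 h libraries, and the 72 h range overlapped each. The log2 fold change was 1.41 (SE 0.259, edgeR adjusted p = 2.97e-05).

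The peak at the head-to-head starts of Arvcf, which encodes a catenin that binds cadherins, and Tango2 (chr16:18347979-18348743) had 83.6 and 68.2 CPM at 24 h, 71.4 and 58.2 CPM at 48 h, and 90.1 and 94.1 CPM at 72 h, against 30.3 and 33.6 CPM in controls. Its highest levels were at 72 h, and no eribulin library came near the controls. The log2 fold change was 1.24 (SE 0.236, adjusted p = 6.28e-05).

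The peak at Gm46382 and Cep170b, a gene named for a centrosomal protein (chr12:112721753-112722686), had 95.5 and 90.0 CPM at 24 h, 78.1 and 94.1 CPM at 48 h, and 87.8 and 100 CPM at 72 h, against 35.8 and 35.2 CPM in controls. The eribulin libraries formed a single level at all 3 times. The log2 fold change was 1.34 (SE 0.224, adjusted p = 4.12e-06).

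Among the other named rises, the peak at the starts of Abraxas1, which encodes a scaffold of a BRCA1 complex, and Gpat3, which encodes an acyltransferase of triglyceride synthesis, ranged from 34.1 to 62.7 CPM (median 46.5) in eribulin, against 16.5 and 21.4 CPM in controls (log2 fold change 1.24, SE 0.297). The peak at Arfrp1, a small GTPase gene of the Golgi, and Zgpat, a zinc-finger repressor gene, ranged from 39.2 to 78.6 CPM (median 62.3), against 16.5 and 32.1 CPM (1.22, SE 0.268). Neither overlapped the controls.

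At the ends of Ppp1r12b, which encodes a myosin phosphatase subunit, and Syt2, a synaptotagmin gene, the range was 90.1 to 121 CPM (median 103) in eribulin, against 60.5 and 36.7 CPM in controls (log2 fold change 1.19, SE 0.205). BC024139/Eppk1, where Eppk1 encodes the keratin-binding protein epiplakin, ranged from 25.1 to 54.7 CPM (median 44.0), against 24.8 and 10.7 CPM (1.44, SE 0.331). Its lowest eribulin library and control replicate 1 were almost level.

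Plekhn1/Klhl17 ranged from 29.1 to 56.5 CPM (median 46.1) in eribulin, against 24.8 and 13.8 CPM in controls (log2 fold change 1.27, SE 0.316). Tssk4/Tm9sf1, a testis kinase gene beside a gene for a membrane protein, ranged from 32.5 to 65.9 CPM (median 43.2), against 27.5 and 13.8 CPM (1.26, SE 0.309). In both, control replicate 1 lay close to the lowest eribulin library.

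Control replicate 2 carried several of these calls. Without it, the edgeR adjusted p was 0.0681 for Abraxas1/Gpat3, 0.119 for Ppp1r12b/Syt2, 0.33 for BC024139/Eppk1, 0.328 for Plekhn1/Klhl17 and 0.372 for Tssk4/Tm9sf1, and 4 of the 10 stayed called. DESeq2 called Ndufaf7/Cebpz, Arvcf/Tango2, Gm46382/Cep170b and Ppp1r12b/Syt2, also 4 of 10.

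**Figure D2:**
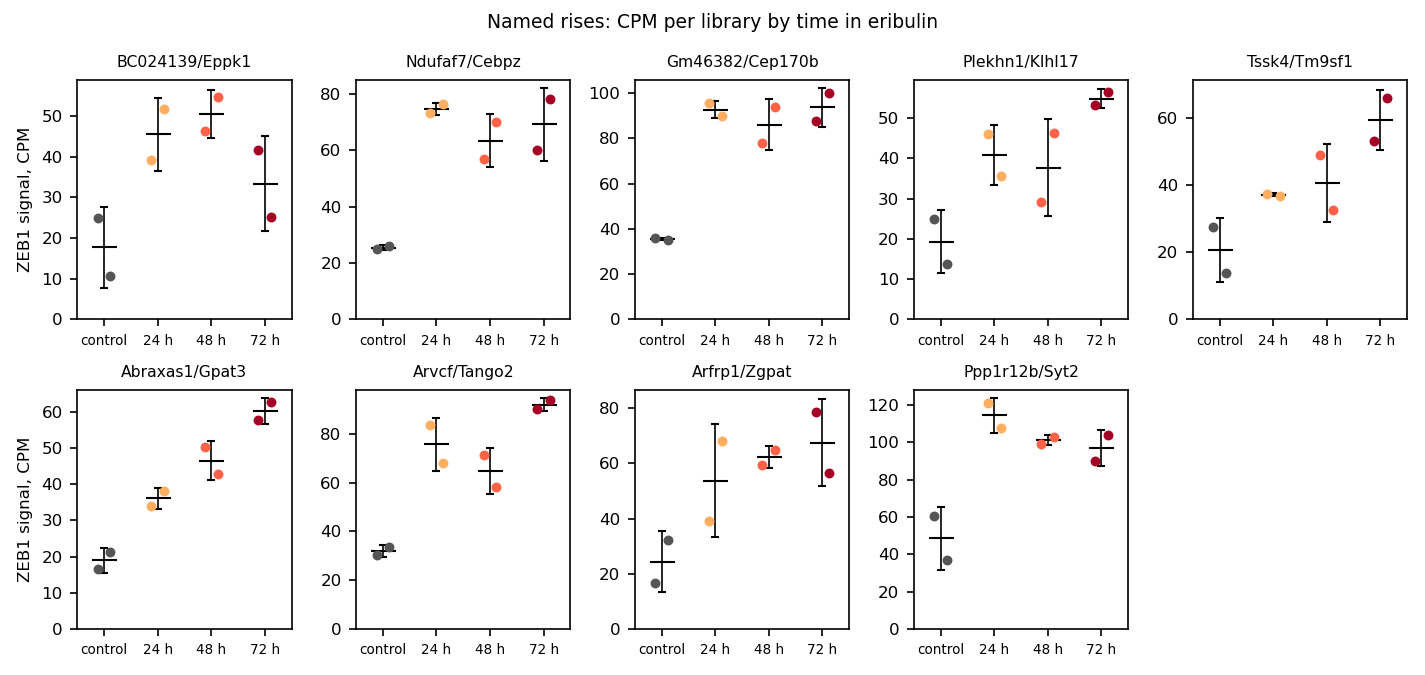
Points are the CPM of each library at 9 of the 10 largest rises, by time in eribulin with untreated control at the low end; bars mark the mean and the SD of 2 libraries. The Ndufaf7/Cebpz peak lay at 56.9 to 78.4 CPM in eribulin and at 24.8 and 26.0 CPM in controls, and at the BC024139/Eppk1 peak the lowest eribulin library reached 25.1 CPM, beside 24.8 CPM in a control.

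At all 3 times, 36 shared-boundary peaks were higher (3.03%; 1.76% of all tested peaks) and 12 lower (1.01%; 1.49%). Besides those above, the named ones include the starts of Ro60, which encodes an RNA-binding autoantigen, and Uchl5, which encodes a proteasome deubiquitinase (chr1:143776705-143777400). That peak had 71.6 and 90.0 CPM at 24 h, 78.1 and 106 CPM at 48 h, and 99.4 and 104 CPM at 72 h, against 38.5 and 42.8 CPM in controls. All 6 eribulin libraries were above both controls (log2 fold change 1.13, SE 0.217, edgeR adjusted p = 6.54e-05).

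Cinp/Tecpr2, where Cinp encodes a partner of the kinase CDK2 and Tecpr2 an autophagy protein, ranged from 75.0 to 132 CPM (median 94.9) in eribulin, against 41.3 and 42.8 CPM in controls (1.18, SE 0.214). Eml3/Rom1, a microtubule-binding protein gene beside a photoreceptor gene, ranged from 99.2 to 127 CPM (median 108), against 41.3 and 59.6 CPM (1.04, SE 0.192). Both were apart from the controls in every library, and DESeq2 called both.

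Elmo3/E2f4, where E2f4 encodes a repressor of cell cycle genes, had 23.1 to 46.0 CPM (median 39.7) in eribulin, against 2.75 and 12.2 CPM in controls (log2 fold change 2.06, SE 0.395). All 6 eribulin libraries were above both controls, whose levels rest on 1 and 8 counts.

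The peak at the boundary of Rac3, a small GTPase gene, and Lrrc45, a centrosomal linker protein gene, lay at chr11:120721608-120721967. It held 114 counts over the 6 eribulin libraries and 2 over the controls, 1 in each. The ratio of the shares of library counts was 17.1, with an exact 95% interval of 4.64 to 143 that covers counting error only. CPM ranged from 15.7 to 43.9 (median 33.8) in eribulin, against 2.75 and 1.53 in controls, and the groups did not overlap. With 1 count in each control, this peak passed the filter on low counts through its eribulin libraries alone. It was also named because it was called at all 3 times. The ratio, its interval and the lack of overlap thus describe a chosen peak and are no separate support for the rise.

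Of the 37 falls at shared boundaries, 15 were at genes of histones, the proteins that package DNA. Of the 26 shared-boundary peaks with a histone gene, all tested, 15 were lower and 1 higher for the mean of the 3 times (57.7 and 3.85%). Of all shared-boundary peaks tested, 3.11% were lower and 15.1% higher, and of all tested peaks 8.53 and 8.27%. The median log2 fold change of the 26 was -0.56. By time, 12 were lower after 24 h, 14 after 48 h and 10 after 72 h, and 1 was higher each time. Of all tested peaks, 4.61, 5.41 and 5.74% were lower at these times. All 15 lie among the 23 peaks where every gene is a histone gene, 17 of them in the cluster on chromosome 13 and 6 in that on chromosome 3, a split made after the values were seen. Those 23 had a median width of 1272 bp and a median level of 128 CPM. Their log2 fold changes ran from -1.05 to 0.09, and 22 of 23 were below 0.

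The peak at the histone genes H2ac24 and H4bc24 (chr13:21832937-21834240) had 286 and 232 CPM in controls. It had 109 and 115 CPM at 24 h, 128 and 121 CPM at 48 h, and 141 and 113 CPM at 72 h. Every eribulin library was far under both controls. Both 24 h libraries were below both 48 h libraries, and the 72 h range overlapped both. The log2 fold change was -1.05 (SE 0.126, edgeR adjusted p = 1.04e-10).

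The peak at H2ac15 and H2bc15, an H2A and an H2B gene (chr13:21752978-21754913), had 164 and 181 CPM at 24 h, 164 and 127 CPM at 48 h, and 136 and 97.2 CPM at 72 h, against 308 and 254 CPM in controls. The groups did not overlap, and the lowest library was at 72 h. The log2 fold change was -0.92 (SE 0.124, adjusted p = 9.92e-09).

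The peak at H2bc23 and H2ac23 (chr13:21808704-21810848) had 165 and 153 CPM at 24 h, 148 and 154 CPM at 48 h, and 166 and 135 CPM at 72 h, against 292 and 264 CPM in controls. The eribulin libraries were at a common level under both controls. The log2 fold change was -0.84 (SE 0.119, adjusted p = 6.71e-08).

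Of the other histone pairs lower at all 3 times, H3c15/H2ac19 ranged from 123 to 179 CPM (median 138) in eribulin, against 226 and 263 CPM in controls (-0.80, SE 0.124). H2ac4/H3c2 ranged from 77.0 to 138 CPM (median 96.7), against 187 and 167 CPM (-0.82, SE 0.142). H2ac13/H2bc13 ranged from 95.3 to 144 CPM (median 99.5), against 182 and 188 CPM (-0.79, SE 0.138). No eribulin library of these 3 pairs reached a control.

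H2bc18/H3c13 ranged from 114 to 143 CPM (median 132) in eribulin, against 204 and 225 CPM in controls (log2 fold change -0.75, SE 0.128). H2bc11/H2ac11 ranged from 134 to 172 CPM (median 159), against 215 and 255 CPM (-0.61, SE 0.123). H3c14/H2ac18 ranged from 41.6 to 84.7 CPM (median 66.2), against 104 and 125 CPM (-0.90, SE 0.175). These 3 were also apart from the controls in every library.

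H3c8/H2ac10 ranged from 39.3 to 62.4 CPM in eribulin, against 88.0 and 88.7 CPM in controls (log2 fold change -0.78, SE 0.194), and it did not pass the test at every time. Histone pairs with no call over the mean included H2ac6/H2bc4, with 137 to 164 CPM against 179 and 177 CPM (-0.23, adjusted p = 0.235), and H2bc22/H2ac22, with 113 to 153 CPM against 162 and 159 CPM (-0.24, adjusted p = 0.221). In both, the controls were above the eribulin libraries by less than the test could call. The only rise was at H2az1, a variant histone gene, and its neighbour Dnajb14, with 21.2 to 34.7 CPM against 2.75 and 12.2 CPM (1.64, SE 0.422, adjusted p = 0.0034), and its controls rest on 1 and 8 counts.

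Histone genes are close copies, and the treatment of reads that map to several places is not stated in the sources used here, so values of single histone peaks are uncertain. The printed H2ac24 and H2bc23 windows share a run of 233 identical bases on opposite strands, while H2ac24 and H2ac15 share at most 10. Of 38 windows at histone peaks, 8 share a run of at least 76 bases, the read length in the labels, with a window of another histone peak. Only windows of 300 bases at shared-boundary histone peaks were compared, while these peaks had a median width of 1136 bp. Copies elsewhere in the peaks or outside this group were not searched, so more reads may be affected. As a sum, which such splitting within the group does not change, histone peaks held 0.231 to 0.258% of a library's counts in the 6 eribulin libraries, against 0.364 and 0.36% in controls. The Wilson intervals of all 6 eribulin libraries (highest upper bound 0.276%) lay under those of the controls (lowest lower bound 0.345%).

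All 26 windows at the histone peaks that fell held CCAAT, and 12 held TATAAA, with a median GC content of 44.8%. Over all 38 histone windows, with or without a fall, 35 held CCAAT (92.1%) and 20 held TATAAA (52.6%), with a median GC content of 44.7%. Single-boundary peaks at histone genes had 6 falls and no rise among 31 tested. The share lower was 19.4%, where 2.23% of all tested single-boundary peaks and 8.53% of all tested peaks were lower. With control replicate 2 left out, 8 histone peaks were lower, and with replicate 1 left out, 12. In the fit without control replicate 2 the adjusted p was 0.17 for H2bc11/H2ac11, 0.118 for H3c14/H2ac18 and 0.122 for H3c8/H2ac10. DESeq2 called 7 histone peaks lower.

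**Figure D3:**
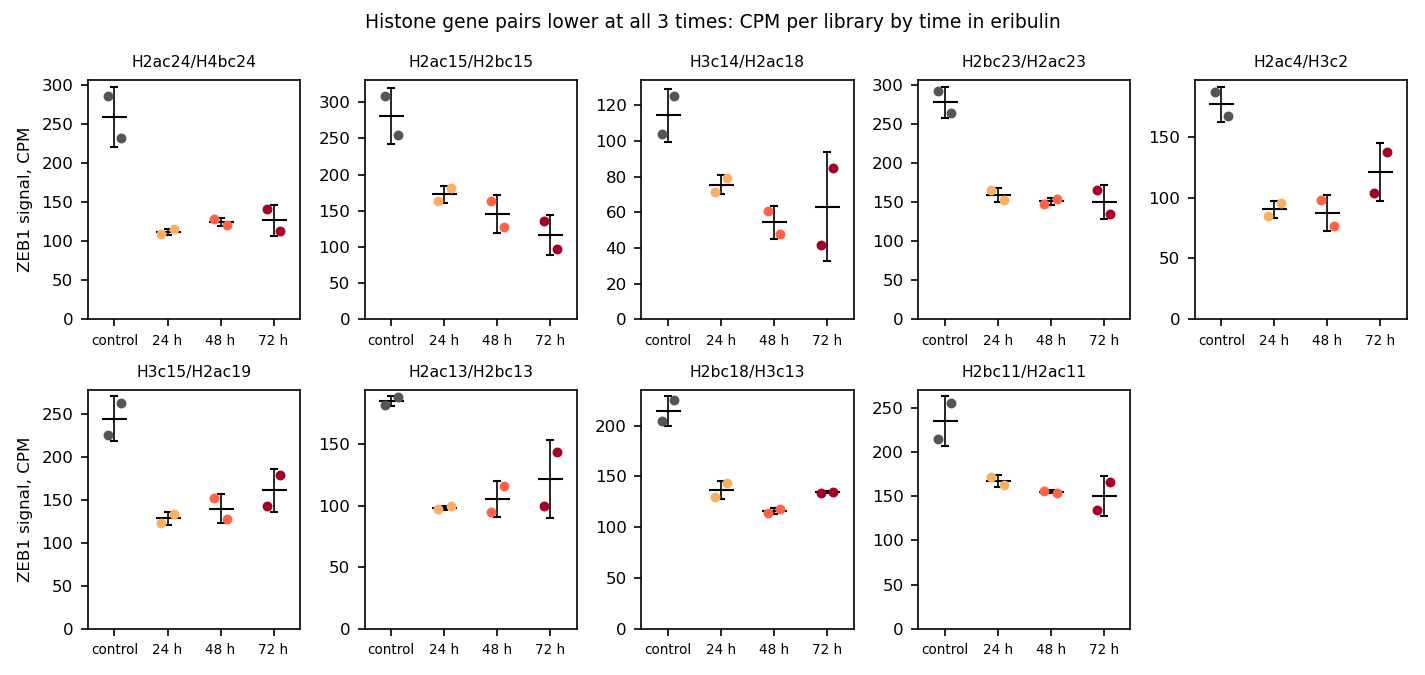
Points are the CPM of each library at the 9 histone gene pairs that were lower at all 3 times, with untreated control at the low end of the time axis; bars mark the mean and the SD of 2 libraries. The H2ac24/H4bc24 peak lay at 109 to 141 CPM in eribulin and at 286 and 232 CPM in controls.

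Outside the histone group, 179 rises and 22 falls were called among shared-boundary peaks for the mean of the 3 times, the falls being 1.89% of those tested. At the ends of Plbd1 and Atf7ip, the second of which encodes a partner of the histone methyltransferase SETDB1, levels ranged from 18.5 to 47.7 CPM (median 32.8) in eribulin, against 71.5 and 61.1 CPM in controls (log2 fold change -0.94, SE 0.233). Otud7b/Mtmr11, a deubiquitinase gene beside a myotubularin gene, ranged from 40.8 to 66.5 CPM (median 47.1), against 96.3 and 81.0 CPM (-0.78, SE 0.194). Spag7/Camta2, at a sperm antigen gene and a calmodulin-binding activator gene, ranged from 261 to 322 CPM (median 288), against 396 and 416 CPM (-0.51, SE 0.103). It fell at all 3 times. DESeq2 called none of these 3 peaks, with adjusted p of 0.193, 0.164 and 0.0642 in the order given. None of the 3 overlapped the controls, and without control replicate 2 the adjusted p was 0.0517 for Plbd1/Atf7ip and 0.0679 for Spag7/Camta2. Small nuclear RNA genes had no shared-boundary peak within 1 kb. Near such genes, 6 of 13 tested single-boundary peaks (46.2%) were lower for the mean of the 3 times. Away from boundaries 31 of 45 were (68.9%), where 8.53% of all tested peaks were lower.

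Among the 10 highest peaks, 2 rose and 4 fell over the 3 times, where 8.27% of all tested peaks rose and 8.53% fell. With 10 peaks this count is a description only. The 10 with the highest mean CPM were Tomm40/Nectin2, Mms19/Ubtd1, Spag7/Camta2, Srgap2/Fam72a, Mylpf/Tbc1d10b, Ubxn6/Hdgfl2, Izumo4/Mob3a, Esrra/Catsperz, Khsrp/Slc25a41 and Med19/Tmx2. Mms19/Ubtd1, where Mms19 encodes an iron-sulfur cluster assembly factor, had 308 to 408 CPM (median 323) in eribulin, against 264 and 268 CPM in controls (log2 fold change 0.35, SE 0.11, adjusted p = 0.0186). Med19/Tmx2, where Med19 encodes a Mediator subunit, had 213 to 281 CPM (median 239), against 173 and 182 CPM (0.43, SE 0.125, adjusted p = 0.0106). Both were higher in every eribulin library.

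Tomm40/Nectin2, at the mitochondrial import channel gene and an adhesion receptor gene, had 285 to 328 CPM (median 306) in eribulin, against 407 and 382 CPM in controls (-0.36, SE 0.102, adjusted p = 0.00866). Srgap2/Fam72a had 228 to 325 CPM (median 276), against 380 and 352 CPM (-0.40, SE 0.106, adjusted p = 0.00444). Both were lower in every eribulin library. Mylpf/Tbc1d10b had 192 to 301 CPM (median 266), against 344 and 289 CPM (-0.30, SE 0.111, adjusted p = 0.0477), and its groups overlapped. DESeq2 called none of the rises and falls among the highest peaks, with adjusted p from 0.0642 (Spag7/Camta2) to 0.403 (Mylpf/Tbc1d10b).

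Ubxn6/Hdgfl2 (-0.14), Izumo4/Mob3a (-0.13), Esrra/Catsperz (0.10) and Khsrp/Slc25a41 (0.06) did not pass the test over the mean of the 3 times. With control replicate 2 left out, the 5 calls other than that of Spag7/Camta2, given above, were lost, with adjusted p of 0.212 for Mms19/Ubtd1, 0.148 for Med19/Tmx2, 0.113 for Tomm40/Nectin2, 0.0738 for Srgap2/Fam72a and 0.102 for Mylpf/Tbc1d10b. Without control replicate 1 they were lost as well, at 0.115, 0.0961, 0.0847, 0.06 and 0.379 in the same order. The Mylpf/Tbc1d10b call was also lost without 24 h replicate 2 (0.143), 48 h replicate 2 (0.0565) or 72 h replicate 1 (0.111).

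Gene groups of general cell functions had more rises than falls or no call, and over all tested shared-boundary peaks 15.1% rose and 3.11% fell. Genes of the mitochondrial ribosome and respiration had 8 rises and 1 fall among 61 tested peaks (median log2 fold change 0.29), RNA processing genes 8 and 3 among 53 (0.12), and DNA repair and replication genes 4 and 0 among 29 (-0.07). Proteasome and chaperone genes had 5 and 1 among 30 (0.15), membrane traffic genes 7 and 0 among 35 (0.42), and Zfp zinc finger genes 8 and 0 among 29 (0.40). Microtubule and mitosis genes, the pathway nearest to the target of eribulin, had 2 and 0 among 28 (0.15), cytosolic ribosome genes 1 and 0 among 15 (0.19), and the 9 peaks at tRNA synthetase genes had no call. A peak at genes of different groups counts in each.

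The following examples are the called peak with the smallest adjusted p in a group and direction, where not described elsewhere, a choice made after the values were seen. Atp5e/Prelid3b, at an ATP synthase subunit gene, had 67.0 to 106 CPM (median 75.2) in eribulin, against 44.0 and 33.6 CPM in controls (1.07, SE 0.23, adjusted p = 3.86e-04). Ccdc157/Sf3a1, at a splicing factor gene, had 25.6 to 49.6 CPM (median 40.3), against 11.0 and 10.7 CPM (1.84, SE 0.369, adjusted p = 1.50e-04). Neither overlapped the controls.

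Eif2b4/Snx17, at a translation factor gene and a sorting nexin gene, had 79.1 to 102 CPM (median 93.6) in eribulin, against 55.0 and 42.8 CPM in controls (0.96, SE 0.205, adjusted p = 3.48e-04). Sh3bp5l/Zfp672 had 40.9 to 71.9 CPM (median 56.0), against 27.5 and 29.0 CPM (0.98, SE 0.264, adjusted p = 0.00533). Umad1/Rpa3, at a gene for a single-strand DNA-binding subunit, had 92.5 to 106 CPM (median 101), against 49.5 and 70.3 CPM (0.67, SE 0.187, adjusted p = 0.00711). All 3 were higher in each eribulin library than in the controls.

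Rps27a/Clhc1, at a gene that encodes ubiquitin fused to a ribosomal protein, had 87.3 to 98.9 CPM (median 89.3) in eribulin, against 44.0 and 55.0 CPM in controls (0.82, SE 0.202, adjusted p = 0.00214). Klhl18/Kif9, at a kinesin gene, had 76.7 to 118 CPM (median 88.0), against 63.3 and 61.1 CPM (0.54, SE 0.191, adjusted p = 0.0358). Among the falls, Hnrnpa1/Cbx5, at a splicing regulator gene and the gene of heterochromatin protein HP1 alpha, had 134 to 159 CPM (median 144), against 201 and 200 CPM (-0.47, SE 0.129, adjusted p = 0.00567). Cct6a/Psph, at a chaperonin subunit gene, also fell, with 25.7 to 46.2 CPM (median 36.6), against 55.0 and 61.1 CPM (-0.69, SE 0.23, adjusted p = 0.028). DESeq2 called none of these gene group examples, with adjusted p from 0.0611 (Ccdc157/Sf3a1) to 0.405 (Klhl18/Kif9).

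These examples lost their calls without control replicate 2 except Umad1/Rpa3, with adjusted p of 0.148 for Atp5e/Prelid3b, 0.0565 for Ccdc157/Sf3a1, 0.156 for Eif2b4/Snx17, 0.146 for Sh3bp5l/Zfp672, 0.0555 for Rps27a/Clhc1, 0.336 for Klhl18/Kif9, 0.161 for Hnrnpa1/Cbx5 and 0.386 for Cct6a/Psph. Umad1/Rpa3 (0.144), Klhl18/Kif9 (0.12), Cct6a/Psph (0.0612) and Dnajb14/H2az1 (0.0927) lost theirs without control replicate 1.

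Of 21 head-to-head pairs known from textbooks, 18 had a shared-boundary peak, and 2 of their 18 tested peaks were called for the mean of the 3 times, both higher (8.27% of all tested peaks and 15.1% of tested shared-boundary peaks were called higher). At single times, 0 were higher and 1 lower at 24 h, 2 higher and 0 lower at 48 h, and 2 higher and 0 lower at 72 h. Pairs with no such peak were Col4a5-Col4a6, Tbp-Psmb1 and Abcg5-Abcg8, and the Col4a1-Col4a2 peak was too low to test. Tap1/Psmb9, a peptide transporter gene and an immunoproteasome subunit gene that serve antigen presentation (chr17:34187249-34187784), had 28.6 to 48.5 CPM (median 43.1) in eribulin, against 22.0 and 16.8 CPM in controls. All 6 eribulin libraries were above both controls (log2 fold change 1.10, SE 0.311, edgeR adjusted p = 0.00792). DESeq2 did not call this peak (adjusted p = 0.243). Its edgeR call was lost without control replicate 2, where the log2 fold change was 0.87.

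The other 16 tested peaks of these pairs had log2 fold changes from -0.76 to 0.56 and adjusted p of 0.13 or more for the mean of the 3 times. Hspe1/Hspd1, the pair for the mitochondrial chaperonins, had 42.3 to 72.8 CPM (median 56.3) in eribulin, against 88.0 and 59.6 CPM in controls (-0.31, SE 0.204, adjusted p = 0.296). Npat/Atm, at the gene of a histone transcription coactivator and a DNA damage kinase gene, had 55.9 to 79.4 CPM (median 73.2), against 71.5 and 71.8 CPM (-0.06, SE 0.192, adjusted p = 0.866). Both overlapped the controls. Ranbp1/Trmt2a was higher than control after 72 h alone (adjusted p = 0.0356).

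Between 72 and 24 h of eribulin, signal at shared boundaries differed almost always upward. Of the tested peaks, 62 were higher at 72 h than at 24 h and 1 was lower (5.29%, where 4.71% of all tested peaks were called, 2.32% higher and 2.39% lower), and the median log2 difference was 0.32. By direction, 5.21% of tested shared-boundary peaks were higher and 0.084% lower. Single-boundary peaks had 286 higher and 15 lower among 4839 tested (5.91 and 0.31%), also with a median of 0.32. The upward difference was thus not particular to shared boundaries. Peaks away from boundaries had 144 higher and 491 lower among 15163 tested (0.95 and 3.24%), with a median of -0.14. The number of calls fell to 9 without 72 h replicate 2, 16 without 72 h replicate 1, 15 without 24 h replicate 1 and 23 without 24 h replicate 2. DESeq2 called 0 of these peaks, with 93 at an unadjusted p under 0.05 and no adjusted p for 977, and 6 over all peaks (0.0283%).

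The peak at Anxa9, LOC115489748 and the ceramide synthase gene Cers2 (chr3:95315034-95315537) had 74.0 and 59.6 CPM at 72 h, against 22.2 and 25.9 CPM at 24 h. The log2 difference was 1.48 (SE 0.308, edgeR adjusted p = 0.00161). Its 48 h libraries, at 35.7 and 39.3 CPM, lay between, and the controls, at 19.3 and 19.9 CPM, lay below.

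The peak at Hsf1, the gene of the heat shock transcription factor, and Bop1, a ribosome assembly gene (chr15:76477191-76477841), had 90.1 and 91.0 CPM at 72 h, against 37.5 and 39.6 CPM at 24 h (1.22, SE 0.265, adjusted p = 0.00235). The 2 libraries of each time were close together and far from those of the other. Catsperd/Lonp1, at the gene of a mitochondrial protease, had 64.7 and 81.6 CPM at 72 h, against 32.4 and 30.0 CPM at 24 h (1.20, SE 0.29, adjusted p = 0.00691). Its 48 h libraries, at 68.8 and 54.7 CPM, were also above both 24 h libraries.

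Dyrk1b/Fbl, at a kinase gene and the gene of the nucleolar protein fibrillarin, had 74.0 and 50.2 CPM at 72 h, against 17.1 and 30.0 CPM at 24 h (1.39, SE 0.323, adjusted p = 0.00515). Ctbp2/Gm35364, at the gene of a corepressor known to bind ZEB1, had 69.3 and 62.7 CPM at 72 h, against 20.5 and 30.0 CPM at 24 h (1.36, SE 0.323, adjusted p = 0.00606). In both, control replicate 1 (41.3 CPM for Dyrk1b/Fbl and 57.8 CPM for Ctbp2/Gm35364) lay above both 24 h libraries, so the 72 h level stood out less against control than against 24 h.

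The single fall was between the ends of Rnf167, an E3 ubiquitin ligase gene, and Pfn1, the gene of the actin-binding protein profilin (chr11:70651426-70651660). It had 53.2 and 34.5 CPM at 72 h, against 81.9 and 87.3 CPM at 24 h (-0.90, SE 0.266, adjusted p = 0.0313), and its controls had 41.3 and 55.0 CPM. The call was lost without any of the 4 libraries compared, at adjusted p between 0.066 and 0.275. Without 72 h replicate 1 the calls for Anxa9/LOC115489748/Cers2 (0.109), Dyrk1b/Fbl (0.251) and Ctbp2/Gm35364 (0.0998) were lost, and without 24 h replicate 1 those for Dyrk1b/Fbl (0.0905) and Ctbp2/Gm35364 (0.0728). The Catsperd/Lonp1 call was lost without 72 h replicate 2 (0.115) or 24 h replicate 2 (0.0704).

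**Figure D4:**
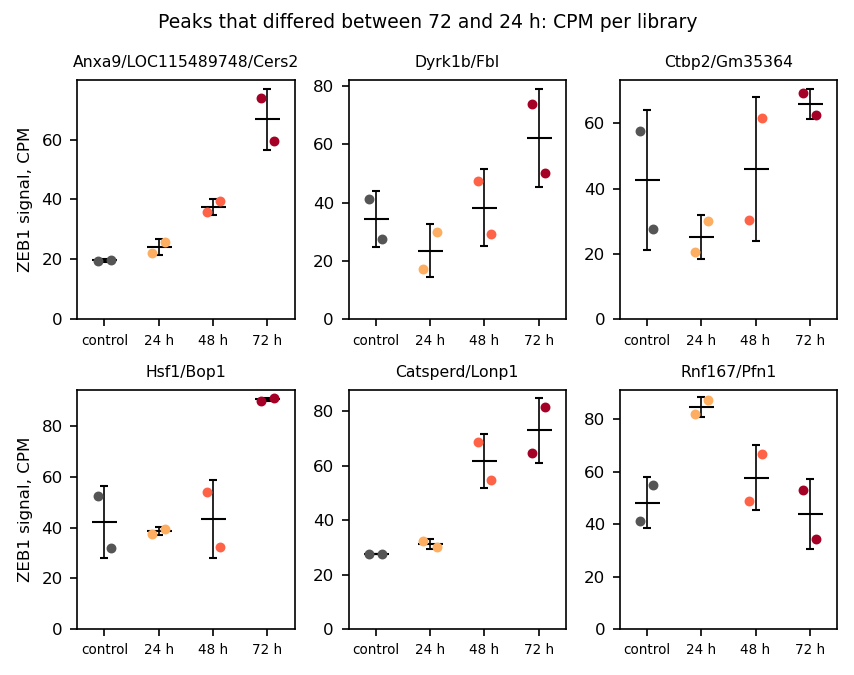
Points are the CPM of each library at the 6 shared-boundary peaks named for a difference between 72 and 24 h, with untreated control at the low end of the time axis; bars mark the mean and the SD of 2 libraries. Hsf1/Bop1 lay at 90.1 and 91.0 CPM at 72 h and at 37.5 and 39.6 CPM at 24 h, and Rnf167/Pfn1 is the single fall.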

How the data were processed

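ZEB1 CUT&RUN libraries of PB3 cells were analysed, 2 for each of 3 times in eribulin and 2 untreated. The deposited table holds raw integer counts per library and consensus peak. Peak lists by the authors, a single one for each group, hold per peak a fold ratio over IgG, the −log10 of a p-value and a score, and the consensus list has a column that is 0 throughout, all as deposited. Nothing in the sources used here states how replicate 2 entered these lists. Per the submitters' processing notes, the tools were Bowtie2 2.2.6, bcl2fastq 2.20.0.422, MACS2 2.1.1, cutadapt 2.4, featureCounts, Picard, deepTools and bedtools 2.30.0, with the build GRCm38 (mm10), and settings are not stated.

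Gene starts and ends came from the RefSeq table of GRCm38.p6, and strands and promoter windows from RefSeq sequences of the same build. Testing used edgeR 4.0.16 under R 4.3.3 on the raw counts (filterByExpr, TMM, robust quasi-likelihood fit with 1 mean per group over all 8 libraries), with Benjamini-Hochberg adjustment over all 21192 tested peaks. DESeq2 1.42.0 was an alternative. The code was tested on simulated data. The SE of a fold change is its size divided by the square root of its F value.

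Members, gene groups and tests were chosen with earlier results of these data known. Named peaks are the 10 highest; the 10 largest rises and falls over the mean of the 3 times and up to 5 each way between 72 and 24 h, among those called, at or above the median CPM and without overlap of libraries; up to 10 each way called at all 3 times; and those at 21 textbook pairs. Gene group examples were added after the values were seen. Replicate numbers did not pair the libraries: differences between replicates correlated between groups at -0.0302 to 0.001. Some peaks that this rule names are not reported here singly and stay in the counts.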

Additional observations from a re-analysis of the deposited data

Results flagged for a closer look

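The change in ZEB1 signal differed between 72 and 24 h of eribulin at 63 shared-boundary peaks, by a direct edgeR test between these times. The named peaks among them differed by 1.48 (Anxa9/LOC115489748/Cers2), 1.39 (Dyrk1b/Fbl), 1.36 (Ctbp2/Gm35364), 1.22 (Hsf1/Bop1), 1.20 (Catsperd/Lonp1) and -0.90 (Rnf167/Pfn1) on the log2 scale, 72 h minus 24 h. The 72 h libraries were the shallowest of the treated ones, and the part of depth in these differences was not tested.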

How the results depend on the processing

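Calls at shared boundaries numbered 134 at 24 h, 139 at 48 h, 215 at 72 h, 217 for the mean and 63 between 72 and 24 h. DESeq2 gave 5, 5, 6, 17 and 0, with no adjusted p for 447, 526, 475, 235 and 977 of the tested shared-boundary peaks. Peaks with starts of 2 or more genes only, a smaller set by construction, gave 73, 76, 119, 121 and 35. Summing the replicate pairs of 24 h, 72 h and control left 1 residual degree of freedom and 34 calls between 72 and 24 h, and the cause of these losses was not tested. RLE factors, no filter, a halved distance and, added after seeing the data, leaving out histone peaks kept every count within 1.5 times. The fit with the replicate number as a block gave 135, 139, 208, 214 and 56 calls and changed none of 82 named calls. Leaving out each library in turn gave 31 to 144, 24 to 144, 43 to 228, 35 to 214 and 9 to 76. The 24 h count was 82 without 24 h replicate 1 and 52 without replicate 2, the 48 h count 70 and 84 without the same replicates of 48 h, and the 72 h count 77 and 103. For the mean it was 114 without control replicate 1. Without control replicate 2, 29 named calls were lost; DESeq2 lost 31 of those it tested. Small values without a call changed sign as libraries were left out: Ppat/Paics (-0.07 to 0.24), Mrpl40/Hira (-0.26 to 0.00), H2ac21/H2ac20 (-0.00 to 0.20) and Gcat/H1f0 (-0.21 to 0.58). With median counts per peak of 10 to 24, small changes at low peaks were not detectable at this depth.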
